A study of Sus scrofa with 6 samples.

Results

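Collagens form the fibres that hold muscle fibres and bundles together and pass force on to tendon. Fibrillar collagens, such as types I and V, assemble into the fibrils themselves, and fibril-associated collagens, such as types XII, XIV and XVI, belong to a family whose members sit on or near fibril surfaces and link them to the surrounding matrix. In skeletal muscle these chains are made mainly by fibroblasts of the connective tissue sheaths, and slow, postural muscles are known for a denser connective tissue than fast ones. The 6 genes described here are COL1A1, COL1A2 and COL5A1 of the fibrillar group and COL12A1, COL14A1 and COL16A1 of the fibril-associated group. They were chosen from the authors' comparison of the 2 muscles, as the genes whose symbol or title in that table names one of these chains. They are 6 of the 11 genes with a collagen title there, and cover 9 of its 15 collagen probe sets, a probe set being a group of short oligonucleotides on the array that reads a transcript. COL5A1 was matched by symbol on 2 probe sets and the other 7 probe sets by title alone.

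The samples were 3 arrays of longissimus dorsi and 3 of soleus from 3 Meishan gilts, littermates 150 days of age on a standard diet with no treatment. The longissimus dorsi, a back muscle taken at the last rib, is classed in the labels as fast and glycolytic, and the muscle titled soleus, called SE in the protocol and taken from its deep part, as oxydolytic, read here as oxidative. With 3 arrays a muscle the precision is limited by their number, and the SDs and SEs measure the spread between samples of littermates. Each value is a log2 expression that the authors centred on the probe set's median over the 6 arrays, so it tells how arrays differ and not how abundant a transcript was, and levels of different collagens cannot be set against each other. The RNA came from whole muscle, so a difference in the number of collagen-making cells and one in collagen RNA per cell cannot be told apart. The named fibre-type markers ran in part against the labels, since MYOZ2, whose product sits at the Z-disc of mainly slow fibres, had a mean 0.86 higher in soleus, while a probe set titled as slow myosin heavy chain was lower by a difference of -0.98. Soleus replicate 3 stood apart by its spread: its values over the array had an SD of 0.50, and those of the other arrays lay between 0.24 and 0.31.

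All 9 collagen probe sets had their 3 soleus values above their 3 longissimus dorsi values. The table had kept a probe set only where its unadjusted p was under 0.05 and its fold at least 1.5, and 6.08% of the 23935 probe sets on the array showed that separation towards soleus. The members were therefore selected on this difference, and the values that follow are a description with no test. The median difference over the 9 probe sets was 1.22 on the log2 scale, within a range of 0.64 to 1.82, against a median of -0.03 over all probe sets and of 0.85 over the 323 probe sets listed as higher in soleus (1.35% of the array). A 2-fold or larger excess in soleus was found in 6 of the 9 collagen probe sets and in 0.798% of the array. In limma, a linear model fitted over all 23935 probe sets, 0 of the 9 had a Benjamini-Hochberg adjusted p under 0.05, and 0.00836% of the array did, in either direction. All 9 were under 0.05 before adjustment in that fit, which the selection nearly fixes. So were 2025 of the 23935 probe sets on the array. The authors' own kind of unpaired test, once adjusted, also passed 0 of the 9, and 2 of the 23935 on the array.

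**Figure D1:**
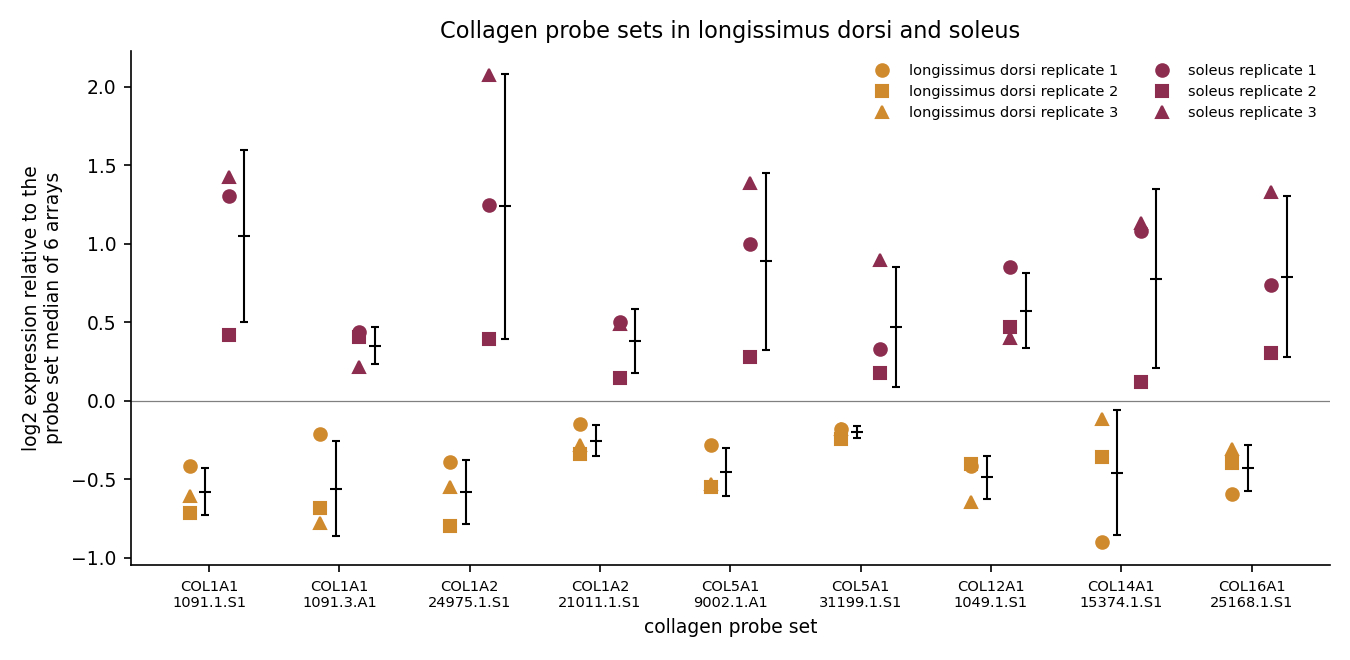
Log2 expression relative to each probe set's median over 6 arrays (vertical axis) for the 9 collagen probe sets (horizontal axis, gene and probe set ID), with 1 symbol per array, circles, squares and triangles for replicates 1, 2 and 3, and black bars for the mean and SD of each muscle (n = 3). The soleus symbols lie above 0 and the longissimus dorsi symbols below it in every probe set, and the soleus values spread from 0.12 to 2.08.

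Type I collagen, the main collagen of tendon and of muscle connective tissue, is a trimer of alpha 1 and alpha 2 chains. For COL1A1, the alpha 1 chain, the probe set with the larger difference read -0.42, -0.72 and -0.61 in longissimus dorsi replicates 1, 2 and 3, and 1.31, 0.42 and 1.43 in the same order in soleus. Soleus replicates 1 and 3 stood together well above replicate 2, and the lowest soleus value lay 0.84 above the highest of longissimus dorsi. The muscle means were -0.58 ± 0.15 and 1.05 ± 0.55 (SD, n = 3 each), a 3.10-fold difference (log2 difference 1.63, SE 0.27). The other COL1A1 probe set read -0.21, -0.68 and -0.78 in longissimus dorsi and 0.44, 0.40 and 0.21 in soleus. Here the 3 soleus arrays lay close together, replicate 3 was the lowest of them, and longissimus dorsi had the wider spread (SD 0.30 against 0.12). The difference was 0.91 (SE 0.19), or 1.88-fold.

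For COL1A2, the alpha 2 chain, the leading probe set gave the largest difference among the members, 1.82 (SE 0.38) or 3.52-fold. Its values were -0.39, -0.80 and -0.55 in longissimus dorsi and 1.25, 0.39 and 2.08 in soleus. The soleus arrays were spread widely (SD 0.84), from replicate 2 up to replicate 3, and the muscles were 0.78 apart at their nearest values. In that direction 0.0501% of the probe sets on the array differed by more. The other COL1A2 probe set was much flatter, with -0.15, -0.34 and -0.28 in longissimus dorsi and 0.50, 0.15 and 0.49 in soleus. At 1.55-fold (log2 difference 0.64, SE 0.16) it was the member nearest to the fold limit of the selection.

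Type V collagen co-assembles with type I and is known to set fibril diameter by starting fibril growth. COL5A1, its alpha 1 chain, read -0.28, -0.55 and -0.53 in longissimus dorsi and 1.00, 0.28 and 1.39 in soleus on its leading probe set. As on the leading probe sets of both type I chains, soleus replicate 2 was the lowest soleus array and replicate 3 the highest. The means were -0.45 ± 0.15 and 0.89 ± 0.56 (SD, n = 3), a 2.54-fold difference (log2 difference 1.34, SE 0.28). The other COL5A1 probe set was very even in longissimus dorsi, at -0.18, -0.24 and -0.18, and read 0.33, 0.18 and 0.90 in soleus. Its difference was 0.67 (SE 0.21), or 1.59-fold, and without soleus replicate 3 it was 0.45. It was the member nearest to the p limit, with p = 0.0386 in the authors' deposited table.

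COL12A1 encodes type XII collagen, a fibril-associated collagen of tendon and muscle sheaths under tension. It read -0.41, -0.40 and -0.65 in longissimus dorsi and 0.85, 0.47 and 0.40 in soleus. Its soleus order differed from that of the leading fibrillar probe sets, with replicate 1 the highest and replicate 3 the lowest. The means were -0.49 ± 0.14 and 0.57 ± 0.24 (SD, n = 3), a 2.09-fold difference (log2 difference 1.06, SE 0.18), and the nearest values of the muscles were 0.81 apart.

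COL14A1 encodes type XIV collagen, a fibril-associated collagen that binds early fibrils. It read -0.90, -0.36 and -0.12 in longissimus dorsi and 1.08, 0.12 and 1.13 in soleus. The highest longissimus dorsi and the lowest soleus value were 0.24 apart, the narrowest separation among the members, and longissimus dorsi had its widest spread here (SD 0.40). The difference was 1.23 (SE 0.32), or 2.35-fold. COL16A1, the type XVI chain, related to the fibril-associated group, read -0.59, -0.40 and -0.31 in longissimus dorsi and 0.74, 0.31 and 1.33 in soleus. Soleus replicate 2 was again the lowest soleus array and lay 0.61 above longissimus dorsi. The difference was 1.22 (SE 0.26), or 2.33-fold.

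The values nearest to 0 need care, because the median of each probe set was set to 0 over the 6 arrays. Where the muscles do not overlap, the highest longissimus dorsi and the lowest soleus value are then equal in size and opposite in sign, and this held in 9 of 9 members within 1e-05. The distance between them is a measurement, whereas the position of 0 is not.

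**Figure D2:**
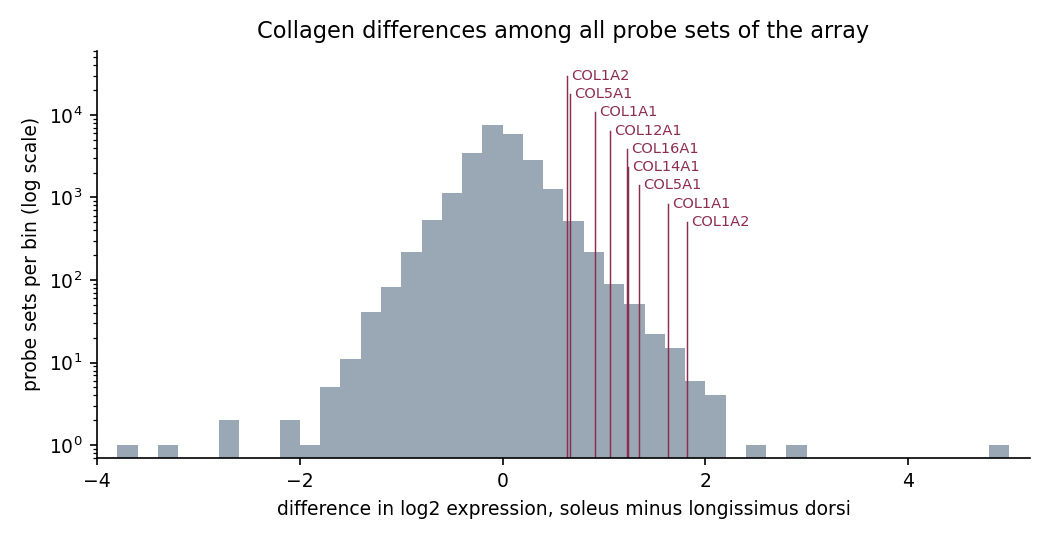
Number of probe sets per bin of the difference in log2 expression, soleus minus longissimus dorsi (horizontal axis, bins of 0.2, log-scaled vertical axis), over all 23935 probe sets, with a line for each of the 9 collagen probe sets. The lines lie between 0.64 and 1.82, on the right flank, where few probe sets remain. The line heights only separate the labels.

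The rank of a collagen within its array is unchanged where all values of that array are stretched alike. It is not free of the array's width otherwise. A value of 0.40 ranked at 84.8 in soleus replicate 3 (COL12A1) and at 94.5 in soleus replicate 2 (the other COL1A1 probe set). Among all probe sets of soleus replicate 1 the 9 members lay between the 89.3 and the 99.5 percentile, with a median of 98.0. In soleus replicate 3 the median percentile was similar, 98.2, although that array's values were much wider, and the members ran from 75.3 to 99.9. In soleus replicate 2 the median was 90.6, with COL14A1 the lowest at 74.2. In longissimus dorsi replicates 1, 2 and 3 the median percentiles were 7.24, 3.62 and 2.49. The ranges of the muscles did not meet, since the highest longissimus dorsi rank was 29.8, that of COL14A1 in replicate 3. These ranks use the values that chose the members and carry no test.

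**Figure D3:**
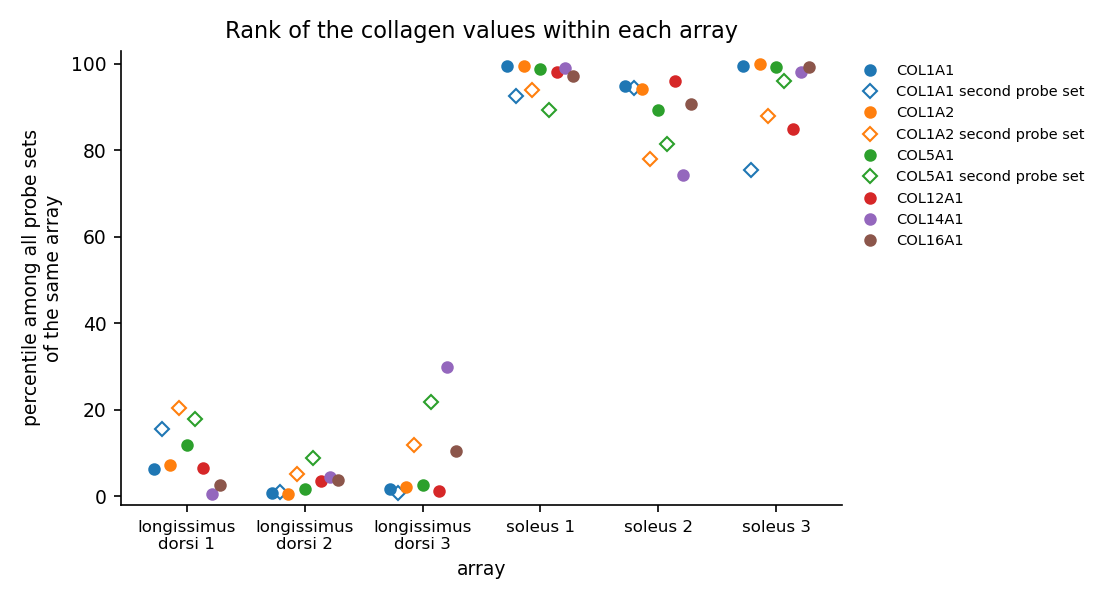
Percentile of each collagen value among all 23935 probe sets of the same array (vertical axis) for the 6 arrays (horizontal axis), with filled circles for the leading probe set of a gene and open diamonds for the other one. Ranks in soleus lie at 74.2 or above and those in longissimus dorsi at 29.8 or below, with soleus replicate 2 lower than the other soleus arrays for most members.

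Soleus replicates differed among themselves more than those of longissimus dorsi for most members. The SD over the 3 soleus arrays was larger in 8 of 9 collagen probe sets, against 60% of all probe sets, and the median ratio of the SDs was 3.51, against 1.25 over the array and 1.74 over the probe sets listed as higher in soleus. The exception was the lower COL1A1 probe set, with a ratio of 0.40. Soleus replicate 2 was the lowest soleus array in 7 of 9 members, against 26% of all probe sets and 49.8% of those listed as higher in soleus. Replicate 3 was the highest in 6 of 9, against 37.6% and 61.6%. Averaged over the 6 genes, the collagen values stood at 0.85 in soleus replicate 1, 0.30 in replicate 2 and 1.02 in replicate 3. The longissimus dorsi arrays were even by the same measure, from -0.47 to -0.42, but single genes ran in opposite orders there. From replicate 1 to replicate 3, COL14A1 rose from -0.90 to -0.12, while the COL1A1 mean fell from -0.32 to -0.69. Soleus replicate 1 had an array-wide SD of 0.31, and replicate 3 one of 0.50. The part of this width in the collagen values of replicate 3 was not tested. Without that array the median difference over the members was 1.06, and scaling every array to the same SD also gave 1.06.

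Listed probe sets of the same gene, all kept for differing between the muscles, agreed in direction and not in size. The excess in soleus on the leading probe set was 1.65 times that on the other one for COL1A1, 2.27 times for COL1A2 and 1.59 times for COL5A1, as a ratio of the folds. The authors' table puts the COL1A2 probe sets in different UniGene clusters, which are groups of transcript sequences. Those of COL1A1 share a cluster, as do those of COL5A1. Over the 6 arrays, deviations from the muscle means correlated at 0.85 between the COL1A2 probe sets and at 0.86 between those of COL5A1, but at 0.04 between those of COL1A1. The gap between the COL1A1 probe sets was 0.87 and 1.21 in soleus replicates 1 and 3 and 0.02 in replicate 2. In the array's naming, 2 further probe sets carry the ID root of the COL1A1 ones, and the authors' table does not list or name them. One of these read -0.04, -0.59 and -0.50 in longissimus dorsi and 1.33, 0.04 and 1.68 in soleus, the same order of soleus arrays as the leading COL1A1 probe set. Its difference was 1.39 (SE 0.40), and it lay just outside the p limit of the selection (p = 0.0581 by the unpaired test of the authors' table). The other read 0.25, -0.25 and -0.68 in longissimus dorsi and -0.01, 0.04 and 0.01 in soleus, so that the muscles overlapped, with a difference of 0.24 (SE 0.24).

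**Figure D4:**
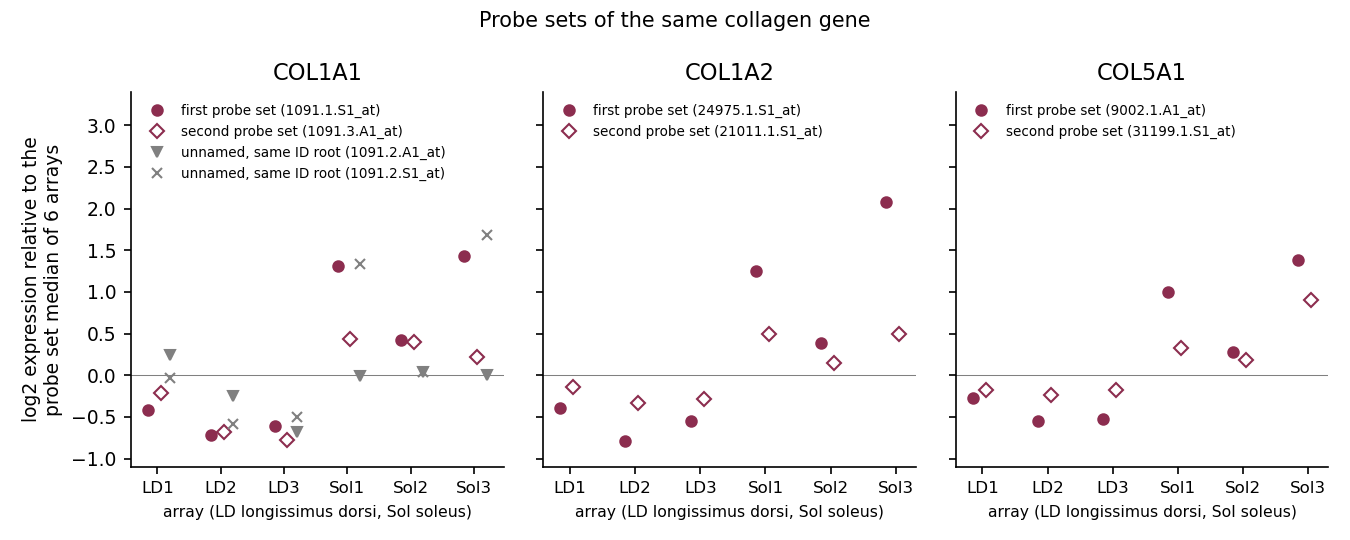
Log2 expression relative to the probe set median (vertical axis) on the 6 arrays (horizontal axis) for genes with 2 probe sets, COL1A1, COL1A2 and COL5A1, as filled circles for the leading probe set and open diamonds for the other one. Grey marks in the COL1A1 panel are 2 unnamed probe sets with the same ID root, of which 1 follows the leading COL1A1 probe set and the other stays near 0 in soleus.

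Members varied together within the muscles to different degrees. After each probe set's muscle means were removed, the 36 pairs of collagen probe sets had a median correlation of 0.60 over the 6 arrays, from -0.65 to 0.98, and 28 were above 0. These arrays are shared by all pairs, and with 2 means removed 4 degrees of freedom remain, so the correlations are descriptions. Leaving out COL12A1 and the lower COL1A1 probe set, the 2 in which replicate 3 was the lowest soleus array, the lowest of the other 21 pairs was 0.53. That choice was made on the array order, which enters the correlation itself, so this value is fixed in part by the choice. COL12A1 correlated at 0.24 with the leading COL1A1 probe set, at -0.13 with that of COL1A2 and at -0.29 with COL16A1.

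Among the 300 other named genes of the authors' table, those most like the mean collagen profile within muscles were transgelin 2, an actin-associated protein, with r = 0.99 over 6 arrays, a PROCR-like transcript (0.97), cathepsin Z, a lysosomal protease (0.96), PYGL, the liver form of glycogen phosphorylase (0.94), and tectonic 3 (0.94). Transgelin 2 read -0.36, -0.41 and -0.25 in longissimus dorsi and 0.75, 0.25 and 0.97 in soleus, the same order of soleus arrays as the collagen mean. The least alike were ankyrin 1 isoform 5 (-0.97) and popeye protein 3 (-0.94), both lower in soleus. A correlation above 0.9 was reached by 13 of these 300 genes and by 1.29% of all probe sets. The collagen mean hardly varied in longissimus dorsi, at -0.45, -0.47 and -0.42. These correlations therefore rest almost wholly on the 3 soleus arrays and are descriptions only.

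Other genes that make, bind or degrade collagen could be named only where the authors' table lists them, so each had been kept for differing between the muscles. Of 30 genes for biosynthesis and cross-linking, 2 were listed, both with higher means in soleus and neither past the adjusted limma threshold. LOXL3, a lysyl oxidase that cross-links collagen and elastin, differed by 1.37 (SE 0.34). FKBP10, a chaperone of procollagen in the endoplasmic reticulum, read -0.16, -0.73 and -0.50 in longissimus dorsi and 0.65, 0.16 and 1.02 in soleus. In both genes soleus replicate 2 was the lowest soleus array, as in most collagen probe sets and in 49.8% of probe sets listed as higher in soleus.

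Of 15 genes whose products bind fibrils or guide their assembly, 7 were listed, all 7 with higher means in soleus, a median difference of 1.33 and 0 past the adjusted threshold. Fibromodulin (FMOD), a small proteoglycan that binds type I fibrils, had the largest difference, 1.64 (SE 0.31). Tenascin-X (TNXB), a glycoprotein that connects fibrils, differed by 1.55 (SE 0.18), dermatopontin (DPT), which promotes fibril formation, by 1.48 (SE 0.25) and fibronectin (FN1), on which collagen is laid down, by 1.33 (SE 0.25). Biglycan, COMP and thrombospondin 4 differed by 0.59 to 0.84. Of 11 genes of collagen degradation, 2 were listed, the membrane-bound collagenase MMP14 at 0.77 and its class of inhibitor TIMP3 at 0.61. Of 5 genes linked to TGF beta, a known inducer of collagen synthesis, 3 were listed, with TGFB3 at 0.99 and TGFB1 at 0.89. The TGF beta-induced matrix protein TGFBI was the third, at 1.54 and 0.98 on its probe sets. The lowest soleus array was replicate 1 for COMP, thrombospondin 4, TIMP3 and TGFB1, and replicate 3 on the latter TGFBI probe set. For the others named in this paragraph it was replicate 2. None of the 7 collagen receptors, of the 8 other fibrillar or of the 7 other fibril-associated collagens was listed, and their levels were not analysed here. The listed collagens of other classes, 5 genes on 6 probe sets of types IV, VI, VIII and XVIII, differed by 0.64 to 1.26 with a median of 0.81. Among all listed probe sets, 323 were higher in soleus and 226 lower, and against this the one-sided direction of these lists is a description of listed genes only.

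**Figure D5:**
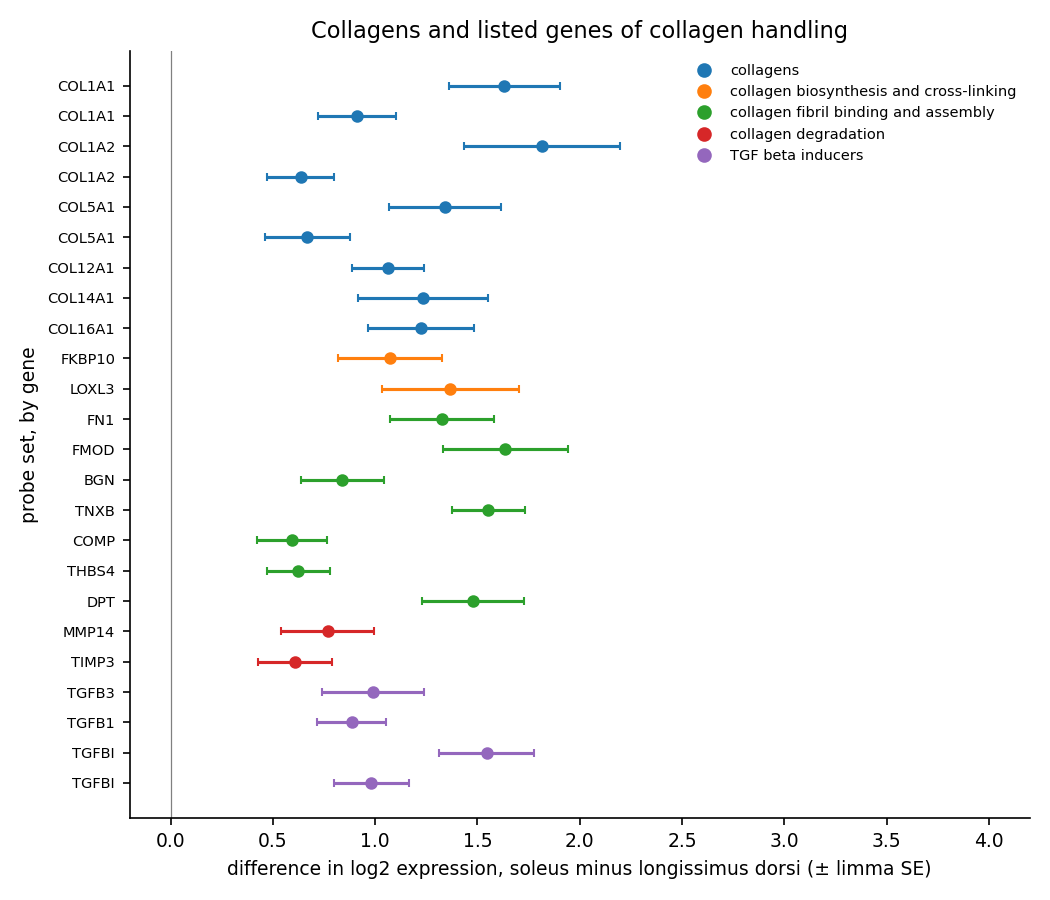
Difference in log2 expression, soleus minus longissimus dorsi, with its limma SE as a bar (horizontal axis), for the 9 collagen probe sets and the listed genes of collagen biosynthesis, fibril binding, degradation and TGF beta (vertical axis). All points lie above 0, between 0.59 and 1.82, and all were kept by the authors' limits on these same values.

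Markers of other cells moved with the collagens in part. Of the fibroblast and tendon list, 1 of 7 genes was listed, the surface protein THY1. It read -0.14, -0.13 and -0.40 in longissimus dorsi and 0.97, 0.13 and 0.98 in soleus. Its lowest soleus array was replicate 2, as in most collagen probe sets and in 49.8% of probe sets listed as higher in soleus. Of the smooth muscle list, 2 of 5 were listed, and their mean ran from -0.69 to -0.30 in longissimus dorsi and from 0.26 to 1.16 in soleus. CNN1, a smooth muscle calponin, differed by 0.75 and MYH11, the smooth muscle myosin heavy chain, by 1.45. LAPTM5, 1 of 5 leukocyte genes, ran from -0.69 to -0.12 in longissimus dorsi and from 0.12 to 0.52 in soleus. Replicate 3 was the lowest soleus array for LAPTM5 and MYH11, and replicate 2 for CNN1. MBP, a myelin protein and 1 of 5 nerve genes, ran the other way, from 0.37 to 0.59 in longissimus dorsi and from -0.56 to -0.37 in soleus. Of 9 fast fibre genes only MYH4 was listed, lower in soleus with a difference of -0.59, and of 8 slow fibre genes the 2 given above. No adipocyte or endothelial gene of the 5 in each list was listed. The part of these cells in the collagen differences was not tested.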

How the data were processed

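RNA of both muscles was labelled with biotin and hybridised to Affymetrix porcine arrays, as the protocols describe. MAS5 2.3.1 is named, without its role, in the submitters' processing notes. How arrays were scaled is not given in the sources used here. Deposited values were log2 expression, centred on each probe set's median over the 6 arrays (0 within 5e-07 for each probe set), so intensity is unknown and no dim probe set could be left out. Per the file headers, the authors' comparison lists an unadjusted p-value of an unpaired test, kept under 0.05, and a linear fold of at least 1.5. An equal-variance unpaired test gave its p-values to within 4.74e-07.

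After 188 control probe sets were left out, soleus was set against longissimus dorsi over 23935 probe sets with limma 3.58.1 in R 4.3.3, and p-values were adjusted by Benjamini-Hochberg (calls under 0.05). The fit was also run on simulated, independent normal values. These had no shared pigs and no array with a wider spread, so that run does not vouch for the fit here. Descriptions were computed with pandas 2.3.3 in Python 3.11.15. Members and lists were chosen with earlier results of these data known. All matching probe sets were named, up to 4 genes per list by size of difference, and the 5 most and 2 least alike genes by Pearson's r within muscles. Names come from the authors' table, in part by title matched by hand. Between the muscles, arrays with the same replicate number had deviations from the muscle means that correlated at -0.14, 0.11 and 0.25. Those with different numbers correlated at -0.36 to 0.34. The labels do not say that a number marks a pig, so the fit was unpaired. Both muscles came from the same 3 pigs, which the SEs do not take into account. Probe sequences were not analysed here.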

Additional observations from a re-analysis of the deposited data

How the results depend on the processing

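The median collagen difference of 1.22 was 1.13 after quantile normalization, 1.24 with each array centred on its median, 1.06 with each array scaled to the same SD (chosen after seeing the data) and 1.22 with 1 value per gene, and leaving out single arrays gave 1.06 (without soleus replicate 3) to 1.47 (without soleus replicate 2). Of 90 recomputed single differences, 0 changed sign and 0 moved by more than the spread between replicates. That the direction held follows from how the members were kept. The spread here was the SD within muscles, and leaving out 1 of 3 arrays cannot move a difference by more than that. For those fits the count of 0 was therefore fixed in advance. The array-wide count past the adjusted threshold, 2 in limma, was 7 with a replicate block, 6 after quantile normalization, 5 with arrays scaled to the same SD, and 1219 at an unadjusted p under 0.05 and 1.5-fold. It ran from 1, without longissimus dorsi replicate 1, to 4, without soleus replicate 3. The causes were not tested. In each of these adjusted fits 0 of the 9 collagen probe sets passed, and the smallest adjusted p of a member was 0.0799 over the settings and 0.269 in the reported limma fit. The replicate block changed no collagen call. A variance trend was not run, since the values keep no intensity level. Without that level, signal over background cannot be judged either.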

Other observations

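Procollagen chains enter the endoplasmic reticulum through the Sec61 channel and leave it in vesicles coated by SEC31 and its partners. Genes titled for these steps were looked up after their values were seen, and like the collagens they had been kept for differing between the muscles, so no test is given. SEC31-like 1 was higher in soleus on both of its listed probe sets, by 0.60 (SE 0.15) and 0.73 (SE 0.17). The former read -0.31, -0.41 and -0.20 in longissimus dorsi and 0.27, 0.20 and 0.41 in soleus. The Sec61 alpha subunit differed by 0.79 (SE 0.22), with 0.17, 0.43 and 0.97 in soleus replicates 1, 2 and 3. Replicate 1 was the lowest soleus array for the Sec61 alpha subunit and for the latter SEC31-like 1 probe set, and replicate 2 for the former.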
